A study of Saccharomyces cerevisiae with 35 samples.

Results

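The 8 genes that encode the subunits of the chaperonin CCT in budding yeast (Saccharomyces cerevisiae) were followed through a rapamycin time course. They are TCP1 (YDR212W), CCT2 (YIL142W), CCT3 (YJL014W), CCT4 (YDL143W), CCT5 (YJR064W), CCT6 (YDR188W), CCT7 (YJL111W) and CCT8 (YJL008C). They were chosen by name, as the complete set of subunit genes of the complex, and not by any measured value. All 8 were among the 5843 genes of the single-cell counts and among the 5549 of these that passed the filter on low counts. In the bulk counts 4 of the 8 were among the 910 genes that passed.

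CCT, also called TRiC, is a barrel of stacked rings in the cytosol, in which each position of a ring is held by a different subunit. It encloses newly made proteins and lets them fold in a cycle driven by ATP, and actin and the tubulins are its best known obligate clients. Prefoldin hands unfolded actin and tubulin chains to CCT, and phosducin-like proteins bind CCT and assist it. Rapamycin binds the prolyl isomerase encoded by FPR1, and that complex inhibits TORC1, the kinase complex that couples nutrient supply to ribosome production and growth.

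The cells were fpr1 deletion strains and wild-type strains of the FY4/5 background, pooled before growth and cultured together in the same YPD flask at 30 °C, so that both met 200 ng/mL rapamycin in the same vessel. Each of the 2 cultures was drawn off continuously and collected in 8 successive intervals of 10 min, of which 2 preceded the drug and 6 followed it. This gave 16 droplet-based single-cell libraries, in which 3′ ends of transcripts are counted by unique molecular identifiers (UMIs). A separate bulk experiment sampled 3 wild-type cultures at 11 times between 0 and 120 min. Strains lacking FPR1 lack the protein through which the drug acts, so they serve as a control for time and handling in the same flask, and a strain code given to each cell distinguished 6 deletion and 72 wild-type codes.

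The single-cell counts held 10818 deletion cells and 162529 wild-type cells. Within a library, the UMIs of all cells of a genotype were added up. These sums held 1501368 to 5191196 UMIs from 444 to 911 deletion cells, against 3993298 to 69114350 UMIs from 1693 to 14688 wild-type cells, so deletion values are the less precise ones. Of 169649 distinct cell barcodes, 3646 (2.15%) occurred in more than 1 library and 0 occurred more than once in the same library. FPR1 itself stood in the deletion sums at 1.03% to 7.91% of its level in the wild-type sums of the same library, and before the drug the log2 difference of deletion minus wild type was -5.86. The highest residual FPR1 was in culture 1's library of 30 to 40 min. The part that wild-type cells or wild-type RNA have in the deletion sums is examined below by removing that share. Levels are given in CPM, a gene's share of the counts of its library on a fixed scale, with library sizes adjusted by the trimmed mean of M-values (TMM) unless said otherwise.

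All 8 genes have a single exon, with coding lengths of 1584 to 1707 bases, and they lie on 3 chromosomes of the sacCer3 build. TCP1 (chrIV:887232-888911), CCT4 (chrIV:199996-201582) and CCT6 (chrIV:836421-838061) are on the plus strand of chromosome IV, and CCT2 (chrIX:83302-84885) is on the plus strand of chromosome IX. CCT3 (chrX:407558-409162), CCT5 (chrX:555914-557602) and CCT7 (chrX:207877-209529) are on the plus strand of chromosome X, and CCT8 (chrX:419957-421663) is on its minus strand. The 250 bases before each start codon were read from the RefSeq sequence of that build. All 8 windows held the letters GTGGCAA or GTGGCGA on either strand. The stretches around them are shown because they are the letters shared by all members; they are printed 5′ to 3′ on the strand of the gene, with those letters, or their reverse complement, in capitals.
TCP1, chrIV:887066-887106, plus strand: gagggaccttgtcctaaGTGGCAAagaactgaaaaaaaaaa
CCT2, chrIX:83182-83222, plus strand: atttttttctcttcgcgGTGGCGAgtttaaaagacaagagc
CCT3, chrX:407435-407475, plus strand: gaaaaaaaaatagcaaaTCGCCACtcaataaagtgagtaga
CCT4, chrIV:199822-199893, plus strand: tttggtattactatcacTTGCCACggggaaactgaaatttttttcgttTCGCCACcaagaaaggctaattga
CCT5, chrX:555814-555854, plus strand: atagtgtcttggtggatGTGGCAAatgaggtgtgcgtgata
CCT6, chrIV:836230-836270, plus strand: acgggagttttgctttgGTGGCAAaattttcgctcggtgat
CCT7, chrX:207704-207744, plus strand: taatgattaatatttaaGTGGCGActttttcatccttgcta
CCT8, chrX:421746-421786, minus strand: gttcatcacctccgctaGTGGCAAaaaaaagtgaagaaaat

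The letters began 83 bases (CCT5) to 174 bases (CCT6) before the start codon, and CCT4 held both forms. In CCT3 and CCT4 they were on the strand opposite to the gene. Across all genes, 321 of 6020 windows of the same length held 1 of the forms on either strand (5.33%), GTGGCAA being in 4.20% and GTGGCGA in 1.21%. These letters were picked out after the members' sequences had been read, so their presence in all 8 carries no test. Motifs named from general knowledge of yeast growth and stress genes were searched on both strands too. The PAC motif GATGAG was in 1 of the 8 windows (CCT5; 1023 of 6020 windows) and the RRPE motif AAAATTTT in 2 (CCT5 and CCT6; 8.62%). The proteasome-associated element GGTGGCAAA, which contains GTGGCAA, was in 1 (CCT6; 1.13%), where its last letters overlap the RRPE match. The GATA motif GATAAG was in 0 of the 8, against 12.5% of all windows. The stress response element AGGGG was also in 0 (18.7%), and so was the heat shock element GAANNTTC (9.92%). A match is a match of letters and was not tested as a binding site.

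Before the drug none of the 8 genes was called different between the genotypes. With TMM scaling the mean of each was lower in deletion cells, and the median log2 difference of all genes was -0.03. The culture means did not overlap for CCT5, CCT6 and CCT8. With 2 cultures per genotype this says little, and the share of all genes without overlap was not counted. CCT4 stood at 354 ± 25.1 CPM in deletion cells and 375 ± 5.51 CPM in wild-type cells (SD over 2 cultures, each the mean of its untreated intervals). CCT5 stood at 168 ± 4.09 CPM in deletion cells and 187 ± 20.5 CPM in wild-type cells. The other 6 lay between 193 and 251 CPM in deletion cells and between 205 and 260 CPM in wild-type cells. The difference of deletion minus wild type was tested, as all comparisons of the single-cell sums were, with edgeR's quasi-likelihood test and Benjamini-Hochberg adjustment over 5549 genes, and a gene with an adjusted p under 0.05 was called. The 8 log2 differences ran from -0.22 (CCT7, SE 0.11, adjusted p = 0.617) to -0.04 (CCT2). None of the 8 was called by edgeR or DESeq2 and 0 had an unadjusted p under 0.05; 0.541% of all genes were called. The 2 untreated intervals, later minus earlier, differed by -0.17 to 0.09 in deletion cells and by -0.09 to 0.01 in wild-type cells, with 0 of 8 called by edgeR and 0% of all genes called in either genotype (120 genes had an unadjusted p under 0.05 in deletion cells and 9 in wild-type cells).

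Per kilobase of coding sequence, the untreated wild-type order was CCT4 at 236 ± 3.47, CCT2 at 163 ± 3.98, CCT3 at 156 ± 13.4, CCT7 at 154 ± 24.0, CCT8 at 152 ± 0.684, TCP1 at 127 ± 10.3, CCT6 at 125 ± 2.52 and CCT5 at 111 ± 12.1 CPM per kb (SD, n = 2). CCT4 stood clear of CCT2, and CCT8 of TCP1, by more than the sum of their SDs. All the other neighbours in this order differed by less than that. The highest level was 2.14 times the lowest. In CPM before division by length, the same sums put CCT8 next after CCT4, at 259.8 ± 1.17, with CCT3 behind CCT2 and CCT7 at 250.5 ± 21.6 (SD, n = 2). Because 3′ ends of transcripts were counted, a count need not grow with the length of a transcript. The order per kilobase is thus a convention, and the division itself moves CCT8.

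In fpr1 deletion cells the CCT genes changed little after rapamycin. The plot of CPM by interval shows all 8 genes in each library of both genotypes. CCT2, which encodes the beta subunit, had 285, 265, 255, 232, 218, 187, 190 and 180 CPM over the 8 successive intervals in deletion cells of culture 1. In culture 2 it had 230, 226, 238, 214, 190, 184, 193 and 182 CPM. The values of the last interval lay below both untreated values of their culture. TCP1, the alpha subunit gene, had 191, 188, 223, 180, 176, 182, 168 and 194 CPM in deletion cells of culture 1, and 205, 202, 215, 211, 179, 172, 176 and 162 CPM in culture 2. Its last value was above both untreated values in culture 1 and below both in culture 2. CCT6, the zeta subunit gene, stayed between 166 and 215 CPM in all 16 deletion sums.

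**Figure D1:**
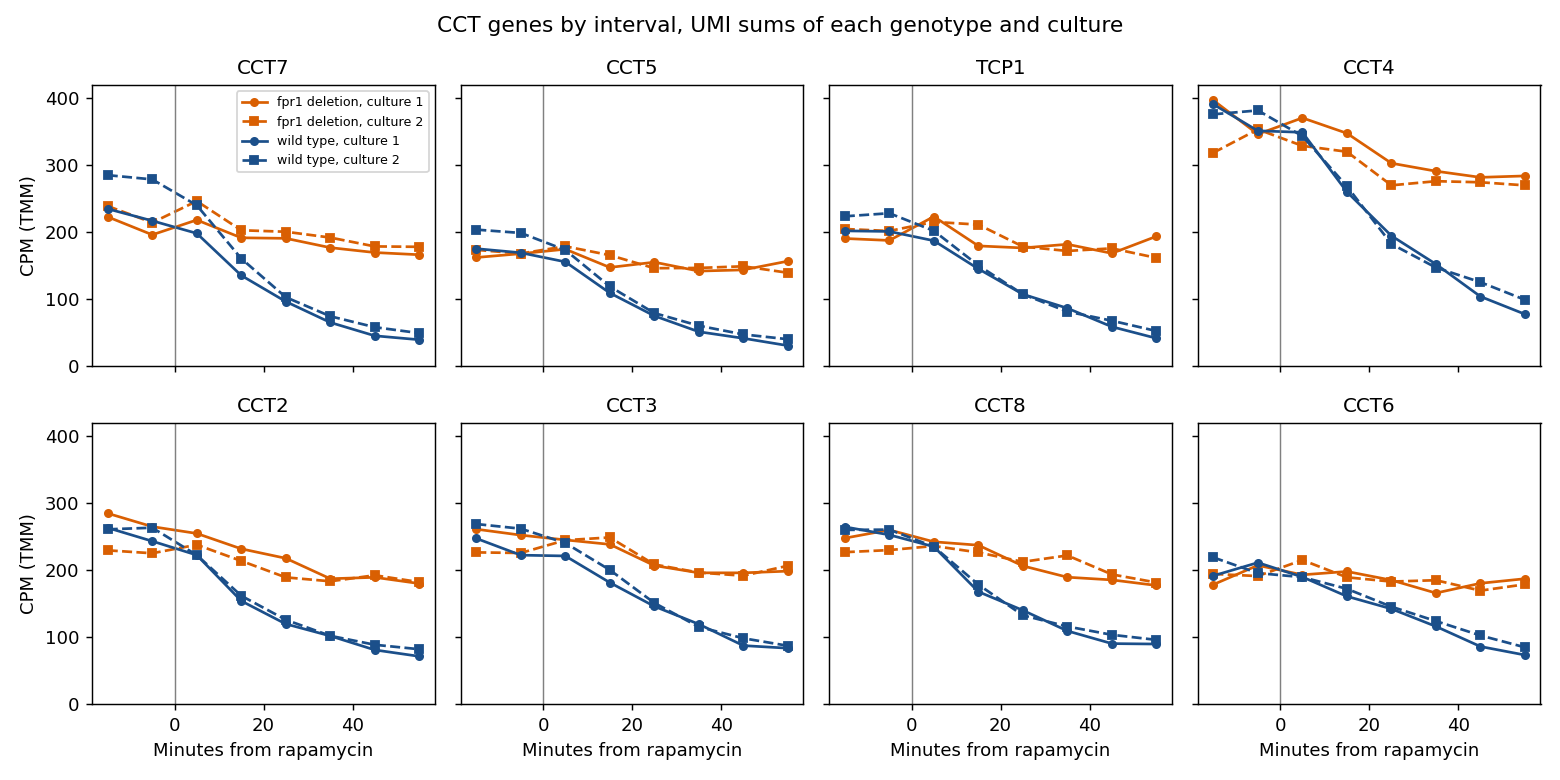
Level of each CCT gene (CPM, TMM-scaled, linear axis from 0) against minutes from the addition of rapamycin (middle of each 10 min interval), with fpr1 deletion cells in orange, wild-type cells in blue, culture 1 as solid and culture 2 as dashed lines. At 50 to 60 min the deletion sums lay between 139 and 284 CPM and the wild-type sums between 30.6 and 99.0 CPM.

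None of the 8 genes was called in deletion cells at 0 to 10 min or at 10 to 20 min, when 0% of all genes were called by edgeR (149 and 211 genes had an unadjusted p under 0.05, and DESeq2 called 0 of the 8 too). At 20 to 30 min 0 of the 8 were called lower, against 1.93% of all genes, while 4 had an unadjusted p under 0.05; DESeq2 called 2, and the fit with culture as a replicate block called 1. At 30 to 40 min CCT2 alone was called, at -0.43 (adjusted p = 0.0174), against 2.67% of all genes called lower, and the replicate block called 3. At 40 to 50 min 4 genes were lower, against 6.67% of all genes: CCT2 (-0.39), CCT8 (-0.34), CCT4 (-0.34) and CCT3 (-0.31). In the last interval, 50 to 60 min, 3 were lower, against 6.42% of all genes. CCT2 differed from untreated by -0.47 (SE 0.099, adjusted p = 0.00406), CCT8 by -0.42 (SE 0.089, adjusted p = 0.00359) and CCT4 by -0.35 (SE 0.11, adjusted p = 0.0383). The other 5 did not pass, with CCT7 at -0.34, CCT3 at -0.25, CCT5 at -0.18, TCP1 at -0.14 and CCT6 at -0.07. With library totals or with scaling by numbers of cells, 0 of the 8 were called in any interval from 30 min on. Library totals turned the sign for TCP1 and CCT6 at 50 to 60 min, and scaling by cells turned it for all 8.

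With culture as a replicate block, 5 genes were called in deletion cells at 50 to 60 min, CCT3 (-0.25, adjusted p = 0.0376) and CCT7 (-0.33, adjusted p = 0.00519) being the additional ones. The calls in deletion cells were the least stable ones here. A fit of the compared groups alone, which has fewer residual degrees of freedom, called 0 of 8 at 30 to 40, 40 to 50 and 50 to 60 min. Leaving out single libraries gave 0 to 1, 0 to 4 and 1 to 3 calls in these intervals. In particular, 0 genes were called at 30 to 40 min without either untreated library of culture 1 or without either 30 to 40 min library, 0 at 40 to 50 min without culture 1's library of that interval, and 1 at 50 to 60 min without culture 2's. Removing from each deletion sum the share of wild-type counts that its residual FPR1 allows left 0 calls at 30 to 40 and at 40 to 50 min, and 2 at 50 to 60 min, where CCT4 was lost (-0.27, adjusted p = 0.146). Set against the last untreated interval alone, CCT4 was also lost at 50 to 60 min (-0.34, adjusted p = 0.122).

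In wild-type cells all 8 CCT genes fell. With TMM scaling the decrease was small in the first 10 min. Every later interval was then lower than the one before it for each of the 8 genes in both cultures. Without TMM this did not hold throughout. In culture 2 the 8 genes together had 4.48 UMIs per cell at 30 to 40 min and 4.65 at 40 to 50 min. In CPM of all UMIs, CCT3 in culture 2 was at 208.5 at 0 to 10 min and at 212.8 at 10 to 20 min. By 50 to 60 min the fitted level was 17.6% of untreated for CCT7, 19.2% for CCT5, 22.2% for TCP1, 23.7% for CCT4, 29.9% for CCT2, 34.2% for CCT3, 35.9% for CCT8 and 38.9% for CCT6. With library totals the log2 changes were smaller, from -1.67 (CCT7) to -0.53 (CCT6), against -2.50 and -1.36 with TMM. The direction at 50 to 60 min was the same for all 8 under each of the scalings tried, which were TMM, relative log expression (RLE), library totals and numbers of cells.

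CCT7, which encodes the eta subunit and fell furthest, had 235, 217, 198, 135, 96.4, 65.2, 45.3 and 39.4 CPM over the 8 intervals in wild-type cells of culture 1. In culture 2 it had 285, 279, 240, 161, 103, 74.4, 58.1 and 49.2 CPM. No treated value from 10 min on overlapped an untreated one, and behind the last values stood 197 and 3486 UMIs. CCT5, the epsilon subunit gene, had 175, 169, 156, 109, 75.0, 51.3, 41.5 and 30.6 CPM in culture 1 and 204, 199, 173, 119, 79.2, 60.3, 47.3 and 40.2 CPM in culture 2. TCP1 had 202, 201, 187, 145, 107, 86.5, 58.8 and 41.6 CPM in culture 1 and 224, 228, 202, 150, 107, 81.4, 67.8 and 52.4 CPM in culture 2. For both genes the decrease continued between the last 2 intervals of either culture.

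CCT4, the delta subunit gene and the highest per kilobase before the drug, had 391, 351, 349, 260, 195, 152, 104 and 77.5 CPM in wild-type cells of culture 1 and 376, 382, 344, 269, 182, 147, 125 and 99.0 CPM in culture 2. CCT6, which fell least, had 192, 212, 190, 161, 142, 116, 86.2 and 73.5 CPM in culture 1 and 219, 196, 190, 172, 146, 124, 103 and 85.1 CPM in culture 2. Per kilobase, CCT6 began below CCT2, CCT3, CCT7 and CCT8 in its mean over the cultures and ended above CCT7, TCP1 and CCT5. CCT2 had 71.5 and 82.2 CPM at 50 to 60 min, against 244 to 264 CPM in the untreated sums. CCT3, the gamma subunit gene, had 83.7 and 87.4 CPM at 50 to 60 min, against 223 to 269 CPM untreated. CCT8, the theta subunit gene, had 89.9 and 96.2 CPM at 50 to 60 min, against 253 to 265 CPM untreated.

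At 0 to 10 min the log2 changes in wild-type cells were -0.21 to -0.11, and 0 of the 8 genes were called by edgeR, against 9.50% of all genes called lower. A single gene of the 8 had an unadjusted p under 0.05, DESeq2 called 1 gene (CCT2, -0.24, adjusted p = 0.0198), and the replicate block called 1 (CCT7, -0.21, adjusted p = 0.0354). At 10 to 20 min all 8 were called lower, against 28.5% of all genes, with changes of -0.78 for CCT7, -0.71 for CCT5, -0.71 for CCT2, -0.58 for CCT8, -0.53 for TCP1, -0.50 for CCT4, -0.39 for CCT3 and -0.30 for CCT6 (adjusted p 1.46e-06 to 0.00929). Scaled by library totals or by numbers of cells, 0 of the 8 were called in that interval, and with library totals CCT3 and CCT6 were at 0.0078 and 0.10. From 20 to 30 min on, all 8 were called lower in every interval, against 32.4%, 34.0%, 35.1% and 36.0% of all genes. At 20 to 30 min library totals left 3 calls and scaling by cells 5, and with library totals CCT6 was at 0.16 at 20 to 30 min and at 0.018 at 30 to 40 min. At 30 to 40 min library totals left 6 calls, without CCT3 and CCT6, and scaling by cells 7, without CCT6. At 40 to 50 min each left 7, again without CCT6, and at 50 to 60 min all 8 were called with either.

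The log2 changes at 50 to 60 min in wild-type cells differed between the members. CCT7 changed by -2.50 (SE 0.15, adjusted p = 5.58e-13), CCT5 by -2.38 (SE 0.13, adjusted p = 8.32e-14), TCP1 by -2.17 (SE 0.12, adjusted p = 1.04e-13) and CCT4 by -2.08 (SE 0.12, adjusted p = 2.46e-13). CCT2 followed at -1.74 (SE 0.10), CCT3 at -1.55 (SE 0.096), CCT8 at -1.48 (SE 0.091) and CCT6 at -1.36 (SE 0.10), with adjusted p of 6.74e-13 to 2.79e-11. The order within each culture was the same for CCT7, CCT5, TCP1, CCT4, CCT2 and CCT6, and CCT3 and CCT8 changed places. The change of a gene differed between the cultures by 0.0031 to 0.32 log2, whereas the 8 genes spread from -2.52 to -1.46 in culture 1 and from -2.52 to -1.29 in culture 2.

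**Figure D2:**
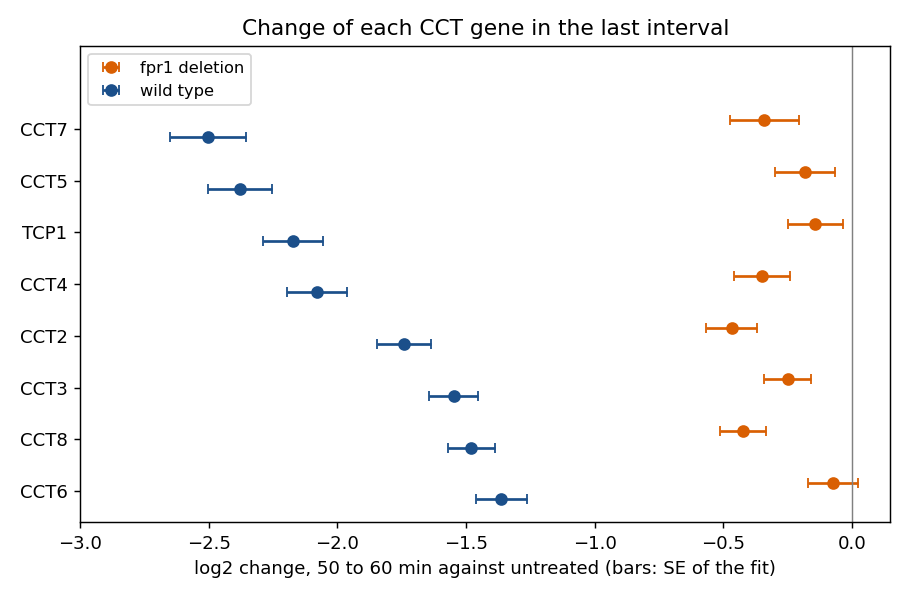
Fitted log2 change at 50 to 60 min of rapamycin against untreated for each CCT gene, in fpr1 deletion cells (orange) and wild-type cells (blue), with bars of 1 standard error (TMM scaling, 2 cultures). The deletion changes lay between -0.47 and -0.07 and changed sign for all 8 genes when sums were scaled by numbers of cells; the wild-type changes lay between -2.50 and -1.36.

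The median log2 change of the 8 genes in wild-type cells was -0.14, -0.56, -0.99, -1.33, -1.65 and -1.91 over the 6 treated intervals, beside -0.01, 0.04, 0.08, 0.11, 0.11 and 0.11 for all 5549 genes. Set against the median of all genes, the members' median at 50 to 60 min was -2.02 under TMM, RLE and library totals, and -2.01 under scaling by cells. A change of scaling shifts all genes of a comparison by nearly the same amount. This distance therefore had to stay nearly the same and is no check on the scaling. Library totals moved the median of all genes itself to 0.94, and the share of calls that were lower to 20.9%, against 46.3% with TMM. The members' own median was then -1.08.

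The decrease went on after the interval of 20 to 30 min. By 50 to 60 min all 8 genes were called lower than at 20 to 30 min in wild-type cells, against 19.3% of all genes, with log2 differences of -1.18 (TCP1), -1.15 (CCT7), -1.10 (CCT5), -1.09 (CCT4), -0.86 (CCT6), -0.80 (CCT3), -0.67 (CCT2) and -0.55 (CCT8). Scaled by cells, 3 of the 8 were called, and with library totals 7, without CCT8 (-0.39, adjusted p = 0.134). Between 0 to 10 min and 10 to 20 min 7 were called lower, against 20.1% of all genes, and CCT6 was not (-0.19, adjusted p = 0.181). That count dropped to 3 when culture 2's library of 0 to 10 min, or culture 1's of 10 to 20 min, was left out, and to 0 with library totals or scaling by cells. With TMM, CCT2, CCT5 and CCT7 were first below 50% of their untreated level at 20 to 30 min in both cultures, CCT4 and TCP1 at 30 to 40 min in culture 1 and 20 to 30 min in culture 2, CCT8 at 30 to 40 min in both, CCT3 at 40 to 50 min in culture 1 and 30 to 40 min in culture 2, and CCT6 at 40 to 50 min in both. This timing depends on the scaling: in UMIs per cell CCT2 was still at 53.3% and 51.1% of untreated at 20 to 30 min, and with library totals its fitted log2 change was -0.91 at 50 to 60 min, short of a halving. CCT2 and CCT8 had changed by -0.71 and -0.58 at 10 to 20 min, and CCT6 by -0.30, although its later step of -0.86 was larger than theirs; the difference between genes was not tested.

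At 50 to 60 min the levels per kilobase had a different order from that before the drug. In wild-type cells CCT4 (55.6 ± 9.58), CCT8 (54.5 ± 2.58), CCT3 (53.3 ± 1.59), CCT2 (48.5 ± 4.74) and CCT6 (48.3 ± 4.96 CPM per kb, SD, n = 2) differed from their neighbours within this set by less than the sum of their SDs. TCP1 (28.0 ± 4.56), CCT7 (26.8 ± 4.23) and CCT5 (20.9 ± 4.01 CPM per kb) lay lower, and these neighbours too differed by less than the sum of their SDs. Per kilobase the highest level was 1.99 times the lowest in deletion cells at that time and 2.66 times in wild-type cells. Untreated, it was 2.24 times the lowest in deletion cells and 2.14 times in wild-type cells. Before division by length, the highest wild-type mean at 50 to 60 min was that of CCT8 (93.05 ± 4.41 CPM). It was ahead of CCT4 (88.3 ± 15.2 CPM) by less than the sum of their SDs.

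The response of deletion cells minus that of wild-type cells was tested directly, as an interaction. At 0 to 10 min 0 of the 8 genes were called higher by edgeR, against 2.49% of all genes, 0 were called by DESeq2, and 0 had an unadjusted p under 0.05. At 10 to 20 min 7 were called, against 20.4% of all genes, and CCT6 was not (0.30, adjusted p = 0.0850). From 20 to 30 min on all 8 were called in every interval, against 24.6%, 27.5%, 29.2% and 30.8% of all genes, and the members' median difference was 0.75, 0.99, 1.29 and 1.51 log2. In the last interval the difference was 2.20 for CCT5 (SE 0.16, adjusted p = 9.38e-11), 2.16 for CCT7 (SE 0.19, adjusted p = 1.63e-09), 2.03 for TCP1 (SE 0.15, adjusted p = 1.07e-10), 1.73 for CCT4 (SE 0.15), 1.30 for CCT3 (SE 0.13), 1.29 for CCT6 (SE 0.14), 1.27 for CCT2 (SE 0.14) and 1.05 for CCT8 (SE 0.12). At 10 to 20 min library totals and scaling by cells each left 0 calls, and leaving out culture 1's or culture 2's library of that interval left 2 or 4. At 20 to 30, 30 to 40, 40 to 50 and 50 to 60 min library totals left 0, 2, 4 and 7 calls, with CCT8 lost in the last interval (0.42, adjusted p = 0.147), and scaling by cells left 2, 7, 8 and 8.

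At that time CCT4, for example, had 277 ± 9.95 CPM in deletion cells and 88.3 ± 15.2 CPM in wild-type cells (SD, n = 2). CCT7 had 172 ± 8.36 CPM in deletion cells and 44.3 ± 6.99 CPM in wild-type cells. The smallest gap between genotypes was that of CCT8, at 180 ± 3.09 CPM in deletion cells and 93.1 ± 4.41 CPM in wild-type cells. For none of the 8 genes did the genotypes overlap in this interval. Each genotype had only 2 sums, and the share of all genes without overlap was not counted.

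Counted per cell, without scaling, the 8 genes together gave 9.50 UMIs per deletion cell at 50 to 60 min in culture 1, against 4.59 and 5.80 in its untreated intervals. In deletion cells of culture 2 they gave 6.28 UMIs per cell at 50 to 60 min, against 6.80 and 7.24 untreated. In wild-type cells they gave 1.50 UMIs per cell in culture 1, against 5.79 and 7.33 untreated, and 2.85 in culture 2, against 8.44 and 9.75 untreated. The higher count per deletion cell in culture 1 came with a higher median UMI count over all genes, which was 6234 per deletion cell at 50 to 60 min. Scaled by numbers of cells, the deletion changes at 50 to 60 min were 0.20 (CCT2) to 0.58 (CCT6) and 0 were called, while the members stood 0.33 below the median of all genes; the part of sequencing depth in this was not tested.

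The genes that work beside CCT were read from the same fits. Of the 6 prefoldin subunit genes, 2 were called lower in deletion cells at 50 to 60 min, GIM3 (-0.70) and GIM5 (-0.39), against 6.42% of all genes. Neither was called with library totals or with scaling by cells. In wild-type cells 5 of the 6 fell, against 36.0% of all genes, PFD1 (-2.43), GIM5 (-2.25), PAC10 (-1.80), GIM4 (-1.52) and GIM3 (-1.42), while YKE2 was at -0.19 (SE 0.84). GIM4 was no longer called with library totals (-0.68) or with scaling by cells (-1.41), and YKE2 alone changed sign, with library totals (0.65). PLP2, the essential phosducin-like protein gene, fell by 0.44 log2 in deletion cells, a call lost under either of those scalings, and by 1.37 in wild-type cells.

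Genes for CCT clients were read in the same way. Of 8 client genes (the actin gene ACT1, the tubulin genes TUB1, TUB2 and TUB3, and the WD40 protein genes CDC20, CDC55, CDH1 and LST8), 1 was called lower in deletion cells at 50 to 60 min, LST8 at -0.60, against 6.42% of all genes. With library totals 0 of the 8 were called in deletion cells, and with scaling by cells 0 were lower and 1 was higher. In wild-type cells TUB2 (-0.88), TUB3 (-0.60), LST8 (-0.45) and CDC55 (-0.22) were lower and CDH1 (0.38) was higher, with TMM. That is 4 of 8 lower and 1 higher, against 36.0% of all genes called lower and 41.9% called higher. These directions rest on the scaling, since with library totals none was lower and ACT1, TUB1, CDC55 and CDH1 were called higher, and with scaling by cells TUB2 alone was called. ACT1 itself was at 0.01 in wild-type cells with TMM, at 0.82 with library totals and at -0.02 with scaling by cells. With TMM the median of the 8 CCT genes was -1.91, against -0.32 for the 8 client genes and 0.11 for all genes. The tubulin folding cofactors, which take tubulin after CCT, were mixed. With TMM CIN4 (-1.21) and RBL2 (-0.66) were lower, CIN2 (0.42) was higher, and ALF1 (-0.06), CIN1 (-0.03) and PAC2 (0.10) were not called. These are 2 of 6 lower and 1 higher, against 36.0% and 41.9% of all genes. With library totals CIN2 (1.26), PAC2 (0.95), CIN1 (0.81) and ALF1 (0.79) were called higher, CIN4 (-0.37) was lower and RBL2 (0.17) was not called. That is 4 of 6 higher and 1 lower, where the median of all genes was itself 0.94. With scaling by cells CIN4 alone was called.

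Other chaperone genes of the cytosol fell in wild-type cells too. Their median log2 change at 50 to 60 min was -2.05, beside -1.91 for the CCT genes, and they spread more widely. Of 13 such genes, 4 were called lower and 1 higher in deletion cells at 50 to 60 min, against 6.42% of all genes called lower and 5.06% called higher. In wild-type cells all 13 were called lower, against 36.0% of all genes. In deletion cells library totals and scaling by cells each left 0 lower and 1 higher, with medians of 0.01 and 0.50. In wild-type cells the ribosome-bound HSP70 genes SSB1 (-5.98) and SSB2 (-4.72) changed most, HSC82, an HSP90 gene, changed by -2.24 and STI1, a co-chaperone linking HSP70 and HSP90, by -2.05. SSA1, an HSP70 gene, changed least, at -1.09, and with library totals it and SIS1 were not called. SSB1 and SSB2, SSA1 and SSA2, and HSC82 and HSP82 are near-identical pairs, so how their reads were divided is uncertain. The mitochondrial chaperonin genes HSP60 (-1.20) and HSP10 (-1.15) were lower as well, though neither was called with library totals.

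The time courses of these groups differed in shape, which the plot of group medians shows. In wild-type cells the median log2 change of 48 ribosome biogenesis genes was -0.84, -3.94, -4.88, -5.22, -5.15 and -4.86 over the 6 treated intervals. That of 132 ribosomal protein genes was -0.25, -1.11, -2.52, -3.44, -4.22 and -4.63. The CCT genes stayed above both. From 20 to 30 min to 50 to 60 min the median changed by -0.97 for the CCT genes, -2.07 for ribosomal protein genes, -0.84 for cytosolic chaperones, -0.39 for prefoldin, -0.15 for the clients and 0.29 for ribosome biogenesis genes. Of the 48 ribosome biogenesis genes 16 were called higher and 9 lower (1 and 2 with scaling by cells). With TMM 23.6% of all genes were called higher in this comparison and 19.3% lower. The CCT median of -0.56 at 10 to 20 min was above the prefoldin median of -0.92, and the CCT median of -1.91 at 50 to 60 min was below the prefoldin median of -1.66. Differences between groups were not tested.

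**Figure D3:**
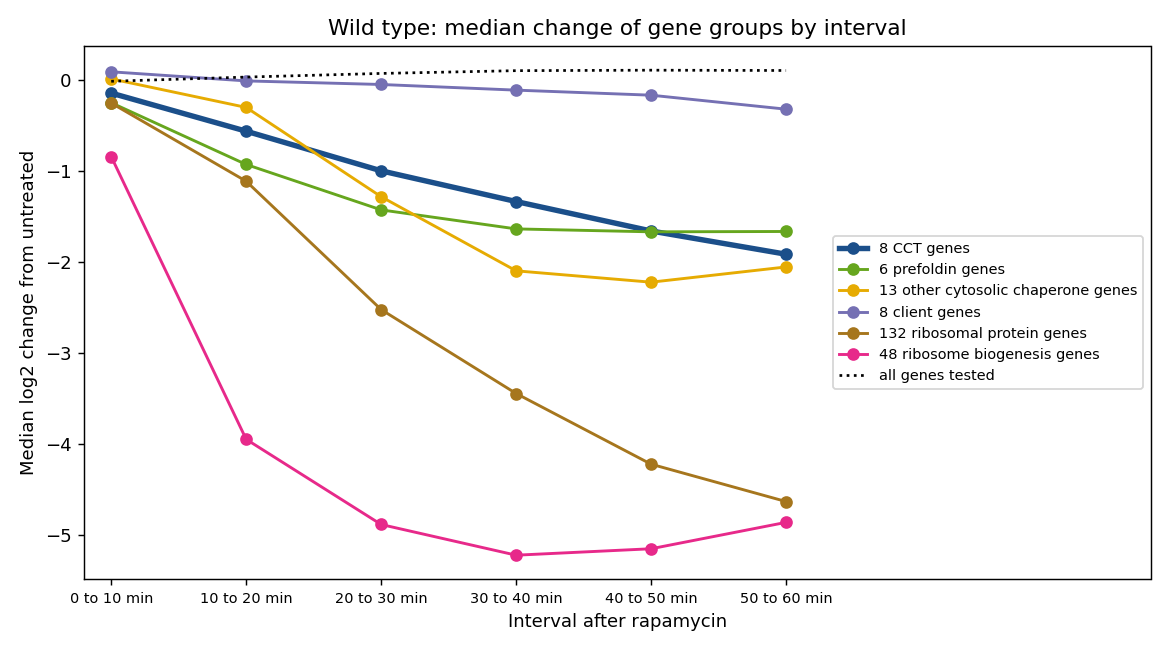
Median log2 change against untreated over the 6 treated intervals (1 tick per interval; TMM scaling) in wild-type cells, for the CCT genes (thick line) and for prefoldin, cytosolic chaperone, client, ribosomal protein and ribosome biogenesis genes, with all 5549 genes as a dotted line. The CCT median was -1.91 at 50 to 60 min, beside -4.86 for ribosome biogenesis and -4.63 for ribosomal protein genes.

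Over the 16 wild-type sums the levels of the members moved together. Pearson's r of log2 CPM between members was 0.958 (CCT6 with CCT8) to 0.998 (CCT5 with CCT7), with 0.997 for TCP1 with CCT4 and for CCT2 with CCT8. These sums share their libraries and a common time course, so the values are a description. Among the 5548 other genes, the best correlated gene was another CCT gene for TCP1, CCT4, CCT5 and CCT7. For a given member, the median rank of the other 7 was between 42 (TCP1) and 208 (CCT8).

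The genes whose pattern was most like the mean of the 8 members were PGA3 (r = 0.998), POP5 (0.998), RPL4B (0.997), RPL3 (0.997), RPS16A (0.997), RPL12B (0.997), RPS11B (0.996), RPL8A (0.996), SCP160 (0.996) and FRS2 (0.996), over 16 wild-type sums. POP5 encodes a subunit of RNase P and RNase MRP, FRS2 a subunit of phenylalanyl-tRNA synthetase, and the RPL and RPS genes ribosomal proteins, several of which have paralogs that can share reads. Likeness of shape did not mean likeness of size: at 50 to 60 min the changes were -3.11 for PGA3, -2.80 for POP5, -4.48 for RPL3, -1.69 for SCP160 and -2.21 for FRS2. In all, 568 of 5541 genes had an r of at least 0.95, so the 10 named are the top of a large set, and they depend on the measure; Spearman's rho kept 1 of them and library totals kept 3.

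The letters described in the promoters were held by 291 other genes that were tested. At 50 to 60 min 47.4% of these were called lower and 32.6% higher in wild-type cells, with a median of -0.20, against 35.4% lower and 42.4% higher with a median of 0.12 for 5226 genes without the letters. Between 20 to 30 and 50 to 60 min, 40.2% of the genes with the letters were called lower, against 18.0% of those without, with medians of -0.25 and 0.08. At 10 to 20 min the order was the other way, with 21.3% lower among genes with the letters and 28.9% among those without. In the other gene lists, the letters stood before YKE2 among 6 prefoldin genes and before TUB1 among 8 clients. They stood before 0 of 13 cytosolic chaperones and before 0 of 48 ribosome biogenesis genes. PGA3 and RPL12B held them among the 10 genes of like pattern. Since the letters were chosen from the members' own sequences, these shares are descriptions and no test was made.

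The strain codes gave a further view within the same libraries. At 40 to 60 min the 8 CCT genes together stood at 1409 to 1518 CPM of all UMIs in the 6 deletion codes (median 1471), and at 897 to 1039 CPM in the 72 wild-type codes (median 977). Untreated, they stood at 1594 to 1689 CPM in the deletion codes (median 1624) and at 1396 to 1661 CPM in the wild-type codes (median 1603). The late level was 86.4% to 94.3% of untreated in the deletion codes and 55.7% to 69.7% in the wild-type codes, so the genotypes did not overlap. These values are scaled by library totals, which give smaller decreases than TMM. The codes share cultures and libraries and are not replicates of a genotype.

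**Figure D4:**
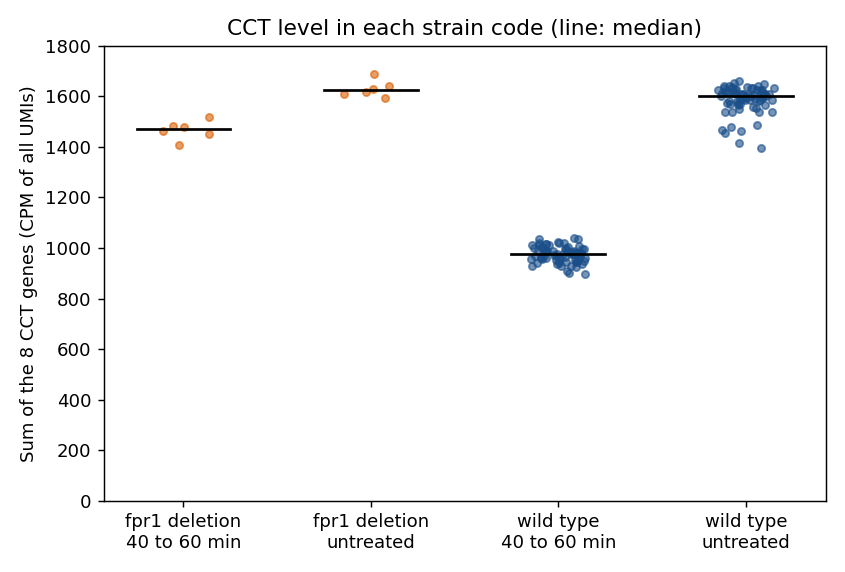
Summed level of the 8 CCT genes (CPM of all UMIs) in each strain code at 40 to 60 min and untreated, for the 6 fpr1 deletion codes and the 72 wild-type codes; each point is a code, with both cultures pooled. The late wild-type points (897 to 1039 CPM) lay below all the others.

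A set of 7 wild-type codes had the lowest share of mitochondrially encoded RNA before the drug, at 0.00200% to 0.00328% of UMIs, against 0.0185% to 0.0236% in the other 65 wild-type codes. Those 7 were also the 7 lowest in summed CCT level before the drug, at 1396 to 1486 CPM against 1538 to 1661 CPM. At 40 to 60 min they overlapped the others, at 952 to 1021 CPM against 897 to 1039 CPM. Their late level was thus 64.9% to 69.7% of untreated, against 55.7% to 66.1%, and 6 of them were among the 7 codes with the highest percentage. They had 246 to 305 untreated cells each, against 573 to 754. This comparison was made after the values were seen and has no test.

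The bulk libraries covered earlier and later times in wild-type cells alone, at much lower depth. The 33 libraries held 3800 to 111293 counts (median 41501), and only CCT4, CCT6, TCP1 and CCT2 passed the filter on low counts. In bulk RNA, fewer cells expressing a gene and less of its RNA per cell cannot be told apart. Over all 33 libraries CCT8 had 108 counts, CCT3 70, CCT7 28 and CCT5 25, and CCT7 was at 0 in 17 libraries and CCT5 in 19, so these 4 were not tested. CCT4 had 1411 counts, CCT6 611, CCT2 302 and TCP1 142. These proportions differed from those of the untreated wild-type single-cell sums. There CCT7 (254 CPM) and CCT8 (260 CPM) stood above CCT6 (205 CPM) and TCP1 (214 CPM). The reason was not tested, and levels were compared only within each kind of library.

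CCT4 had 3 to 116 counts per library. At 0 min it stood at 575, 3229 and 2616 CPM in cultures 1, 2 and 3, the first value resting on 5 counts in a library of 8017. At 10 min it had 1192, 1362 and 1226 CPM, at 30 min 442, 757 and 1056 CPM, at 60 min 239, 246 and 420 CPM, at 90 min 316, 275 and 187 CPM, and at 120 min 562, 618 and 341 CPM. In cultures 2 and 3 all of these lay below the 0 min value of the same culture; in culture 1 those at 30, 60, 90 and 120 min did. It was called lower at every time from 15 min on, at -1.29 at 15 min, -3.13 at 90 min and -2.19 at 120 min. The number of the 4 genes called lower was 2, 2, 2, 2, 3 and 2 at 15, 30, 45, 60, 90 and 120 min, against 8.90%, 18.6%, 22.2%, 24.3%, 23.8% and 25.7% of all genes, and the third gene at 90 min was TCP1 (-3.22, adjusted p = 0.00983).

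CCT6 had 575, 1086 and 1802 CPM at 0 min, 450, 475 and 335 CPM at 5 min, 188, 82.1 and 162 CPM at 60 min, and 272, 309 and 259 CPM at 120 min. The 3 values at 5 min lay below all 3 at 0 min. It was called lower at 5 min (-1.55, adjusted p = 0.0372), when 0.330% of all genes were called lower, at 10 min (-1.22, adjusted p = 0.0441), when 3.96% were, and at every time from 15 min on. It was not called at 7.5 min or 2.5 min. At 2.5 min 0 of the 4 genes and 0% of all genes were called by edgeR, with 17 genes at an unadjusted p under 0.05.

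Averaged over 2.5 to 10 min, 0 of the 4 were called by edgeR against 0 min, against 0.110% of all genes called lower, with 1 at an unadjusted p under 0.05 and 1 called by DESeq2. Over 15 and 30 min CCT4 (-1.47) and CCT6 (-1.78) were lower, against 17.4% of all genes; without culture 2, 1 gene was called. Over 45 to 120 min CCT4 changed by -2.56 (SE 0.30, adjusted p = 4.07e-11), CCT6 by -2.11 (SE 0.33, adjusted p = 1.11e-07) and TCP1 by -1.60 (SE 0.69, adjusted p = 0.0475), against 27.3% of all genes called lower. TCP1 rested on 0 to 23 counts per library and was no longer called with the culture as replicate block (-1.54, adjusted p = 0.0535), with RLE, library totals, no filter or DESeq2, or without any 1 of the 3 cultures. CCT2, at 0 to 28 counts per library, was called at no time and stood at -0.15 (SE 0.55, adjusted p = 0.842) over 45 to 120 min, with a sign that turned under 5 alternatives.

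**Figure D5:**
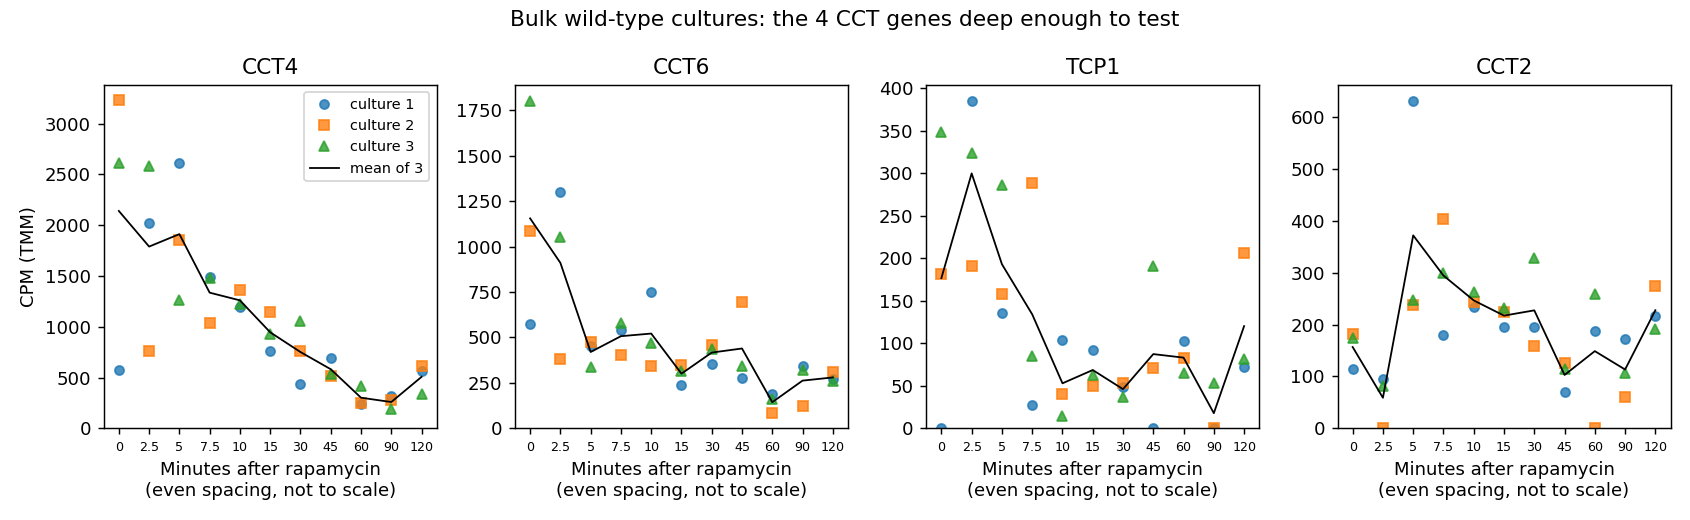
Level (CPM, TMM-scaled) of CCT4, CCT6, TCP1 and CCT2 in the 3 bulk wild-type cultures at 11 times from 0 to 120 min after rapamycin (times evenly spaced on the axis, not to scale), with points for cultures and a line for their mean. CCT4 was at 575 to 3229 CPM at 0 min and at 187 to 316 CPM at 90 min.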

How the data were processed

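The authors deposited unnormalized UMI counts for single cells, each cell annotated by them with its genotype, strain code, interval and culture. For bulk RNA they deposited unnormalized counts per gene; primers with UMIs were used, per the labels' protocols, though the sources used here do not say whether UMIs or reads were counted. The submitters' processing notes name bcl2fastq, kallisto 0.46.1, bustools 0.39.3 and the sacCer3 build, without their roles. The lowest UMI total of a cell was 500. No doublet caller was run, and whether the authors removed doublets is not stated. The 16 libraries of the 35 samples that amplify genotype barcodes were not analysed here.

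UMIs were summed per genotype and library into 32 sums, which served as replicates. Genes were filtered with filterByExpr (minimum count 10), scaled with TMM (factors 0.788 to 1.62) and fitted with edgeR 4.0.16 in R 4.3.3 (robust quasi-likelihood F-test, 1 coefficient per genotype and interval, 16 residual degrees of freedom, biological coefficient of variation 14.1%). Treated intervals were contrasted with the mean of both untreated intervals. Bulk counts were fitted likewise with 1 coefficient per time (910 genes, 22 residual degrees of freedom, biological coefficient of variation 29.7%). Adjusted p-values are Benjamini-Hochberg values over all genes tested, with a threshold of 0.05; they measure the spread between 2 cultures, or 3 in bulk. Correlations used log2 CPM with a prior count of 2.

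Same-numbered samples come from the same culture per the labels' protocols. Deviations of same-numbered samples from their group means correlated with a median r of 0.229 over 28 pairs of deletion sums, 0.259 over 28 pairs of wild-type sums and 0.0852 over 165 pairs of bulk libraries. The highest r was 0.402, 0.838 and 0.373, and 26, 23 and 69 of these pairs were over 0.1. Intervals of a culture were thus correlated, whereas the main fits held no term for culture. Alternatives were RLE, library totals, numbers of cells, no filter, DESeq2 1.42.0, culture as replicate block, each library as a block, a fit of the compared groups alone, the last untreated interval alone, removal of the top 5% of cells by UMIs, removal of a wild-type share from deletion sums, removal of bulk libraries under 10000 counts, and each library or culture left out. The fitting code was tested on simulated data.

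Promoter windows and coordinates are from RefSeq R64 (sacCer3), in which 5812 features of the count table were matched by locus tag. The named genes are all 8 members, all genes of the prefoldin, phosducin-like, client and tubulin cofactor lists, examples from the other lists, and the 10 genes of like pattern. The result for 1 gene of these lists is not reported here. The members and gene lists were chosen from general knowledge with earlier results of these data known.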

Additional observations from a re-analysis of the deposited data

Results flagged for a closer look

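The responses of the 8 CCT genes differed between fpr1 deletion and wild-type cells by a direct test of the difference (edgeR's quasi-likelihood interaction). At 50 to 60 min the deletion response minus the wild-type response was 2.20 log2 for CCT5, 2.16 for CCT7, 2.03 for TCP1, 1.73 for CCT4, 1.30 for CCT3, 1.29 for CCT6, 1.27 for CCT2 and 1.05 for CCT8. The number of members whose responses differed was 7 in the interval of 10 to 20 min, and 8 in each of the 4 later intervals. Of all genes, 37.0%, 44.3%, 52.3%, 55.6% and 58.3% differed in either direction in these intervals. Those called higher, the direction of the members, were 20.4%, 24.6%, 27.5%, 29.2% and 30.8% of all genes. With library totals the numbers of members were 0, 0, 2, 4 and 7, CCT8 being lost at 50 to 60 min (0.42, adjusted p = 0.147), and with scaling by numbers of cells they were 0, 2, 7, 8 and 8. The summed CCT levels of the 6 deletion strain codes were 1594 to 1689 CPM of all UMIs untreated and 1409 to 1518 CPM at 40 to 60 min. Code C was the highest untreated, with code A next at 1640 CPM, and differences between codes were not tested.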

How the results depend on the processing

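Scaling moved the calls most. With library totals 0 CCT genes were called lower in deletion cells at 30 to 40, 40 to 50 and 50 to 60 min, 0 in wild-type cells at 10 to 20 min, 3 at 20 to 30 min and 0 between 0 to 10 and 10 to 20 min; the responses of deletion and wild-type cells differed for 0, 0, 2, 4 and 7 genes in the intervals from 10 to 60 min. With numbers of cells the deletion counts were 0, 0 and 0, the wild-type counts 0 at 10 to 20 min, 5 at 20 to 30 min, 3 for 50 to 60 against 20 to 30 min and 0 between 0 to 10 and 10 to 20 min, and the responses differed for 0 genes at 10 to 20 min and 2 at 20 to 30 min. In deletion cells at 50 to 60 min numbers of cells turned the sign for all 8, to 0.52 for TCP1, 0.20 for CCT2, 0.41 for CCT3, 0.32 for CCT4, 0.48 for CCT5, 0.58 for CCT6, 0.29 for CCT7 and 0.23 for CCT8, and library totals turned it for TCP1 (0.024) and CCT6 (0.10). In wild-type cells library totals turned CCT3 to 0.015, CCT4 to 0.015 and CCT6 to 0.022 at 0 to 10 min, CCT3 to 0.0078 and CCT6 to 0.10 at 10 to 20 min, and CCT6 to 0.16 and 0.018 in the following intervals. In bulk over 45 to 120 min CCT2 was at 0.33 with RLE, 0.061 with library totals, 0.32 with DESeq2, and between -0.13 and 0.048 with a culture left out (0.048 without culture 2 and 0.025 without culture 3). The cause of these changes was not tested beyond the shift of the median of all genes given with each scaling.

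With culture as replicate block the paired counts in deletion cells were 1, 3 and 5 at 20 to 30, 30 to 40 and 50 to 60 min, and the count in wild-type cells was 1 at 0 to 10 min; at 40 to 50 min 5 in place of 4 were called in deletion cells, 8 in place of 7 responses differed at 10 to 20 min, TCP1 in bulk was lost, and the block changed no other call. DESeq2 gave 2 and 4 in deletion cells at 20 to 30 and 30 to 40 min, 1 in wild-type cells at 0 to 10 min and 1 in bulk over 2.5 to 10 min. In deletion cells CCT3 was gained at 50 to 60 min with RLE, DESeq2 and without the top 5% of cells (4 calls each), and CCT4 was lost with the last untreated interval alone and with the wild-type share removed (2 each). RLE gave 2 at 30 to 40 min, the last untreated interval alone 0 and 1 at 30 to 40 and 40 to 50 min, the compared groups alone 0, 0 and 0 from 30 min on, and removal of the wild-type share 0 and 0 at 30 to 40 and 40 to 50 min. Without the top 5% of cells the counts were 2 and 4 in deletion cells at 20 to 30 and 30 to 40 min, and 4 responses differed at 10 to 20 min. Single libraries left out gave 0 to 1, 0 to 4 and 1 to 3 in deletion cells from 30 min on, 7 to 8 in wild-type cells at 10 to 20 min, 3 to 6 between 0 to 10 and 10 to 20 min, and 2 to 7 differing responses at 10 to 20 min; in bulk over 15 and 30 min a culture left out gave 1 to 2. Of the 10 genes of like pattern 1 was kept with Spearman's rho and 3 with library totals. All 8 genes were lower in wild-type cells at 50 to 60 min under all 15 alternatives. Depth limits the deletion sums and the bulk libraries. In bulk 4 members had too few counts to test, and the proportions of the members differed from those of the single-cell sums.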
